A study of Mus musculus with 6 samples.

Results

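The S100 family is a group of small calcium-binding proteins, and ribosome footprints on 8 of its genes were compared here between wild-type (WT) and Mov10 knockout mouse cells. The members were S100a8, S100a9, S100a11, S100a4, S100a6, S100a10, S100a1 and S100a13, which are 8 of the 56748 genes listed and 8 of the 20 whose symbol begins with S100. They were chosen with their knockout and WT values in view, and S100a8 and S100a9, partners of one complex, were singled out because they differed in direction. Their values are therefore a description, with no test. All 8 had reads in every library and passed the filter on low values (a mean of 1 normalized read or more).

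Footprints, the short stretches of mRNA that a translating ribosome shields from nuclease, were sequenced (fragments of 24 to 36 bases, from cells held in cycloheximide) from Lin-c-Kit+ blood progenitor cells, which the labels call hematopoietic stem cells. There were 3 libraries from WT mice and 3 from Mov10 knockout mice, all taken 12 days after 4.5 Gy of irradiation. How the knockout was made, the cells in which Mov10 is absent, the strain and the age of the mice are not stated in the labels. The labels do not state that the libraries are separate animals, so p-values measure only the spread between these samples, which may be technical. Footprints count ribosomes on a gene, so a difference can lie in the amount of its mRNA, in its translation or in how many cells of a type were present, and these cannot be told apart in bulk footprints alone.

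The WT libraries held 2260348 to 2499634 reads and the knockout libraries 1118345 to 1352517, so depth and genotype cannot be told apart. One read was worth 0.614 to 0.681 normalized reads in WT and 1.34 to 1.62 in the knockout. Mov10 itself, the RNA helicase gene named as knocked out, was read at 110, 106 and 104 in the WT libraries and still at 51.0, 89.0 and 46.3 in those labelled knockout, and limma gave it a log2 fold change of -0.84 with an SE of 0.27 (adjusted p = 0.0598). The libraries did not overlap, but the gene did not pass the threshold, and which part of Mov10 was removed is not stated. Of the stem and progenitor markers, Kit was read at 1099 ± 15.8 in WT and 1122 ± 35.7 in the knockout (SD, n = 3). Procr and Slamf1, which mark long-term stem cells, had at most 2 and 3 reads in any library. Genes of the mature lineages that a Lin- gate removes were read as well, with 23 to 58 reads of Ly6g and 11 to 77 of Itgam per library.

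S100 proteins carry calcium-binding loops of the EF-hand type and usually act as dimers that change shape with calcium and then grip a target protein. S100a8 and S100a9 form calprotectin, a complex that fills the cytoplasm of neutrophils, withholds zinc and manganese from microbes, and signals through Toll-like receptor 4 and the receptor RAGE when released. The other members act mainly inside cells, on annexins, myosin and membrane proteins.

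In 7 of the 8 members the libraries of the genotypes did not overlap. S100a8, S100a11, S100a6 and S100a10 were lower in every knockout library than in any WT library, and S100a9, S100a1 and S100a13 were higher. Among all 17114 genes tested, 39.8% had libraries that did not overlap, 16.9% with the knockout higher and 22.9% with it lower. Since the members were chosen on this contrast, nothing is read from their count.

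S100a8 showed the wider gap of the calprotectin pair. In normalized reads, S100a8 (chromosome 3, 90576285 to 90577342, plus strand, GRCm39) stood at 2361, 2207 and 2169.6 in the WT libraries and at 422, 309 and 381 in the knockout libraries. Every knockout library lay far below every WT library, at 371 ± 57.4 against 2246 ± 101 (SD, n = 3), a level 6.06-fold lower. Behind these values are between 3184 and 3636 sequenced reads in WT and between 191 and 315 in the knockout.

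S100a9, its partner, was slightly higher in the knockout. S100a9 (chromosome 3, 90599939 to 90603028, minus strand) stood at 2211, 2334 and 2205 in WT, against 2488, 2635 and 2835 in the knockout. The lowest knockout library lay above the highest WT library, and the means were 2250.03 ± 73.2 and 2652 ± 174, a ratio of 1.18. The excess of S100a9 over WT depended on the scaling. With library totals the ratio was 1.00 and the libraries of the genotypes overlapped, with TMM it was 1.11 and with upper-quartile scaling 1.35. S100a8 stayed below WT in all knockout libraries under each of these scalings, by 5.29-fold to 7.11-fold.

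**Figure D1:**
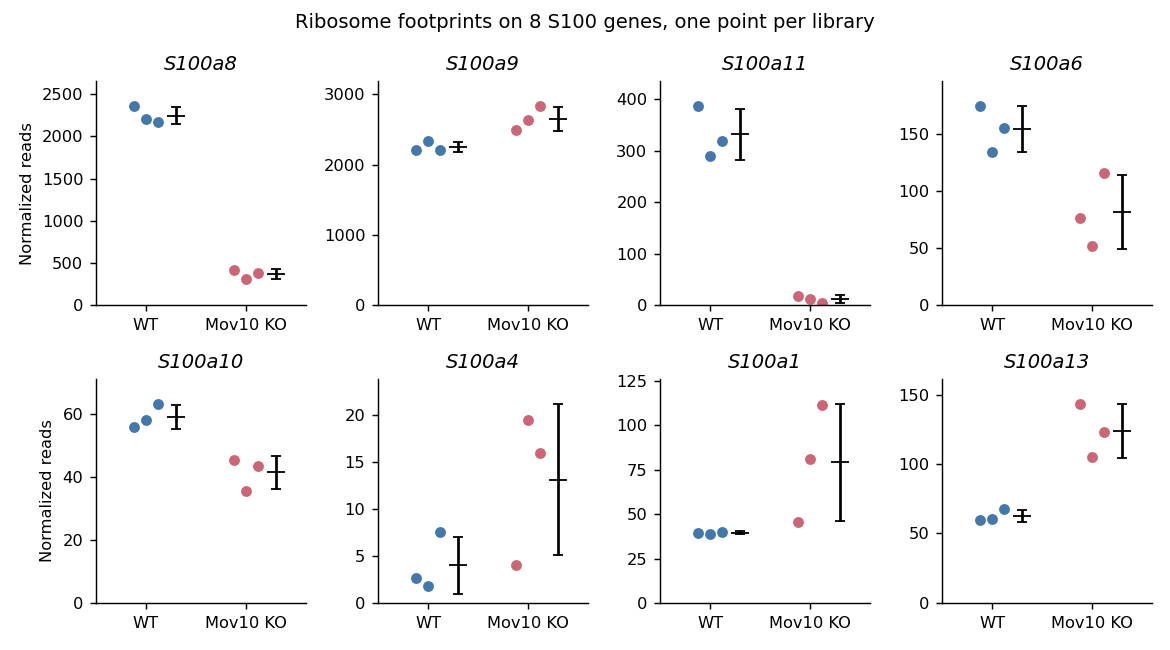
Normalized reads (vertical axes, starting at 0) of the 8 S100 genes in each WT library (blue) and each Mov10 knockout library (red), with black bars for mean ± SD. S100a8 averages 371 and S100a9 2652 in the knockout, and S100a4 is the member whose libraries overlap between genotypes.

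The ratio of the partners within a library does not depend on scaling. Per base of gene length (694 bases for S100a8 and 522 for S100a9), S100a8 was read at 0.803, 0.711 and 0.740 times the level of S100a9 in the WT libraries. Deposited gene length need not equal the coding stretch that ribosomes read, so the ratio within a genotype does not rank the partners. The change of the ratio between genotypes does not depend on length. In the knockout libraries the same ratio was 0.128, 0.0882 and 0.101. The ratio was 0.751 ± 0.0471 in WT and 0.106 ± 0.0202 in the knockout (SD, n = 3), 7.11-fold lower. Over the knockout libraries 5443 reads fell on S100a9 and 769 on S100a8, not corrected for length. S100a8 and S100a9 together took up 0.291% ± 0.00618 of all reads in WT and 0.167% ± 0.00876 in the knockout. S100a9 alone took 0.146% ± 0.00576 and 0.146% ± 0.00930, so the smaller joint share came from S100a8.

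The genes of the calprotectin pair lie 22596 bases apart on opposite strands of chromosome 3, and no other annotated gene overlaps either. Their start regions are shown because these neighbours moved differently, beside that of S100a11, the member with the widest difference. Each runs 5′ to 3′ on the gene's own strand, from 250 bases before to 20 after the RefSeq start (assembly GRCm38.p6, a different build from the footprint table), and capitals mark matches on either strand to 3 short motifs.
S100a8: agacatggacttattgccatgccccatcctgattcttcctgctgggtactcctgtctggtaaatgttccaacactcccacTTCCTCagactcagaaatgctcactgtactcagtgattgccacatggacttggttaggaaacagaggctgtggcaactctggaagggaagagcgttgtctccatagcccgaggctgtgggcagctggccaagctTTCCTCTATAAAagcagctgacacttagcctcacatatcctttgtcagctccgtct
S100a9: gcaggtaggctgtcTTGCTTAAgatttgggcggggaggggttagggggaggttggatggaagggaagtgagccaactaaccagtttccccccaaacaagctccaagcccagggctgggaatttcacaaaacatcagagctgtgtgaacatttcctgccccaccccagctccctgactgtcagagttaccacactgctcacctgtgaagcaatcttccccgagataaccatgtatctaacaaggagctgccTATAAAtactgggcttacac
S100a11: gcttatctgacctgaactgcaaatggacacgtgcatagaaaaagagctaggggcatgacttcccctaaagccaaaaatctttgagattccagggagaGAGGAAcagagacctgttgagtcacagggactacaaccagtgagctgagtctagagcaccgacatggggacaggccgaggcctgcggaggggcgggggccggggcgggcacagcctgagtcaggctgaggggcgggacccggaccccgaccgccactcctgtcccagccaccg

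These windows lie at chr3:90668821-90669090 (plus strand), chr3:90695702-90695971 (minus strand) and chr3:93520246-93520515 (plus strand). The motifs were TATAAA, the core of the TATA box, GAGGAA, a core bound by PU.1, and TTGCNNAA, a core bound by C/EBP factors. The TATA core was found in S100a8, first base at -30 from the start, in S100a9 at 1, and in S100a4 at -31, which is 3 of the 7 members with a window in the table (S100a10 is not in it), against 12.9% of 32851 windows of the same length. The PU.1 core was found in S100a8 at -170 and -36 and in S100a11 at -153, against 25.1% of all windows, and one of those in S100a8 directly abuts the TATA core without overlapping it. The C/EBP core was found at -236 in S100a9 and in no other member, against 10.1% of all windows. A match is a run of letters, and whether a factor binds there was not measured. The motifs were chosen after the data were examined and the window's length with their matches known, so nothing is read from these shares.

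S100a11, which binds annexin A1 and takes part in membrane repair, had the widest difference of the 8. S100a11 (chromosome 3, 93427795 to 93433594, plus strand) stood at 387, 289.7 and 319 in WT and at 18.8, 12.9 and 4.34 in the knockout. The knockout libraries were all low, at 12.0 ± 7.26 against 332 ± 49.9 (SD, n = 3), a level 27.6-fold lower and 23.9-fold to 32.4-fold lower under other scalings. The knockout values rest on 14, 8 and 3 reads, against 468 to 596 per WT library. Its processed pseudogene S100a11-ps, on chromosome 12, had no read in any library.

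S100a10 and S100a6 were lower by less. S100a6 (calcyclin, chromosome 3, 90520189 to 90531488, plus strand), which binds annexins and calcyclin-binding protein, stood at 174, 134 and 155 in WT and at 76.4, 51.8 and 116 in the knockout. The highest knockout library came near the lowest WT library, and the means were 154 ± 20.1 and 81.3 ± 32.3, a ratio of 0.528. S100a10, which is known to have lost calcium binding and pairs with annexin A2 at membranes (chromosome 3, 93462387 to 93471950, plus strand), had 55.8, 58.3 and 63.4 in WT and 45.6, 35.6 and 43.4 in the knockout. Its means were 59.2 ± 3.84 and 41.5 ± 5.26, a ratio of 0.702, which was 0.598 with library totals and 0.803 with upper-quartile scaling. Both genes stayed lower in all knockout libraries under every scaling tried.

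S100a1 and S100a13 were both about double in the knockout. S100a1, known for its action on calcium pumps and channels of muscle (chromosome 3, 90418341 to 90421699, minus strand), stood at 39.6, 38.7 and 40.2 in WT and at 45.6, 80.9 and 111 in the knockout. The WT libraries were nearly equal while the knockout libraries spread widely, at 39.5 ± 0.776 and 79.3 ± 32.9, a ratio of 2.01. S100a13, known for helping cells export FGF1, which has no signal peptide (chromosome 3, 90421742 to 90431888, plus strand), had 59.7, 60.8 and 67.5 in WT and 143, 105 and 123 in the knockout. Its means were 62.6 ± 4.20 and 124 ± 19.2, a ratio of 1.98, and the lowest knockout library stood well above the highest WT library. With library totals the libraries of S100a1 overlapped, at a ratio of 1.71, while those of S100a13 did not, at 1.68.

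These genes lie head to head, with 42 bases between them in the deposited coordinates, and their start windows in the RefSeq table (300 bases each) share 204 bases. Whether reads were counted by strand is not stated, and the annotated spans of S100a1 and S100a13 do not overlap.

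S100a4, which binds non-muscle myosin and is known from cell motility, was close to the limit of detection. S100a4 (chromosome 3, 90511078 to 90513352, plus strand) stood at 2.60, 1.84 and 7.50 in WT and at 4.02, 19.4 and 15.9 in the knockout, from 4, 3 and 11 reads and from 3, 12 and 11. The libraries overlapped, and the means of 3.98 ± 3.07 and 13.1 ± 8.07 rest on too few reads to show a difference at this depth. Without WT replicate 3 the log2 ratio of S100a4 moved from 1.72 to 2.56, the widest such move among the 8 members when single libraries were dropped.

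Per kilobase of gene length, the order of the members changed with genotype. These lengths are as deposited, from 511 bases for S100a11 to 1367 for S100a6, and need not equal coding lengths. The order per coding base was not measured and could differ. In WT the order ran from S100a9 (4310.4 ± 140.2 normalized reads per kb) to S100a8 (3236 ± 146), S100a11 (649 ± 97.7), S100a6 (113 ± 14.7), S100a13 (87.6 ± 5.87), S100a1 (56.9 ± 1.12), S100a10 (48.8 ± 3.17) and S100a4 (6.81 ± 5.26), and no library of a gene overlapped those of the next. In the knockout S100a9 was read at 5081 ± 334 per kb and S100a8 at 534 ± 82.7, still first and second. S100a13 (173 ± 26.8) and S100a1 (114 ± 47.5) then came before S100a6 (59.5 ± 23.6), S100a10 (34.3 ± 4.34), S100a11 (23.5 ± 14.2) and S100a4 (22.5 ± 13.8). S100a11 thus went from place 3 to place 7. In the knockout S100a13 overlapped S100a1, S100a1 overlapped S100a6, S100a10 overlapped S100a11, and S100a11 overlapped S100a4, so those neighbours have no settled order.

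**Figure D2:**
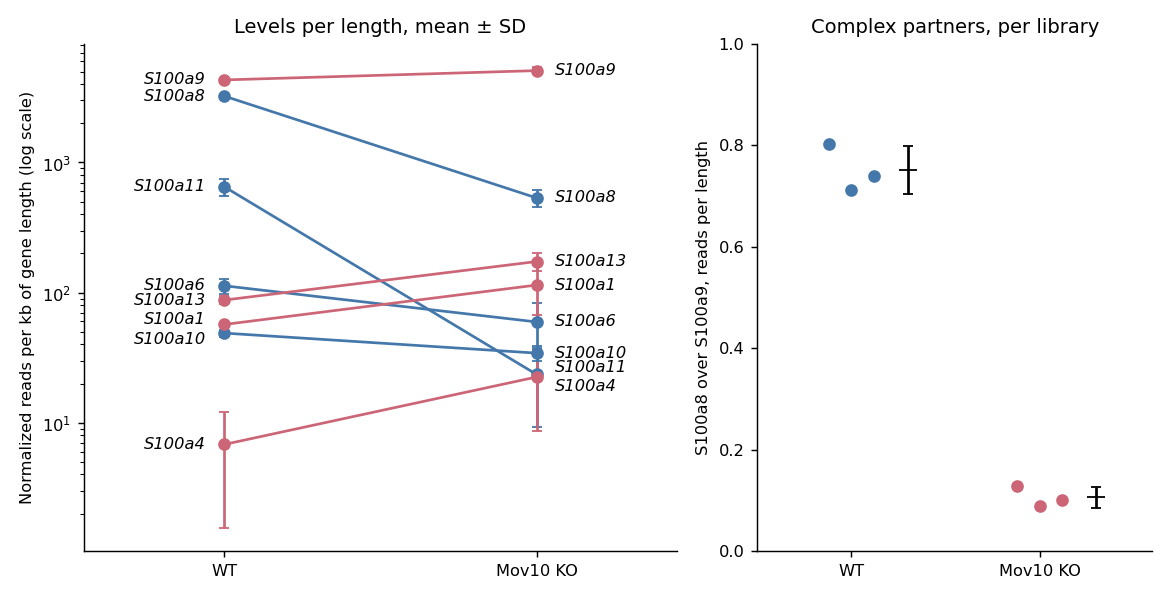
Left, mean ± SD of normalized reads per kb of gene length (log axis) for the 8 S100 genes in WT and Mov10 knockout cells, with lines in red where the mean is higher in the knockout and in blue where it is lower. Right, S100a8 over S100a9 reads per length in each library, with mean ± SD in black, at 0.751 in WT and 0.106 in the knockout.

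Scaling shifted all members alike but changed few statements. Over the 17114 genes the median log2 fold change stood at -0.17 as deposited, at -0.25 under TMM, at -0.37 under library totals and at -0.00073 under the upper quartile. Among calls over all genes, 48.4% were higher in the knockout as deposited, 62.6% under the upper quartile and 31.0% under library totals. The log2 ratio of S100a8 ranged from -2.83 to -2.40 over these scalings and that of S100a11 from -5.02 to -4.58. S100a13 ranged from 0.75 to 1.18. S100a9 ranged from 0.0057 to 0.43 and S100a1 from 0.77 to 1.20, and both overlapped between genotypes with library totals. Counting members whose libraries did not overlap, 3 were higher and 4 lower with upper-quartile and TMM scaling, and 1 was higher and 4 were lower with library totals. The share of all genes without overlap was not taken under these scalings, so nothing is read from these counts.

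**Figure D3:**
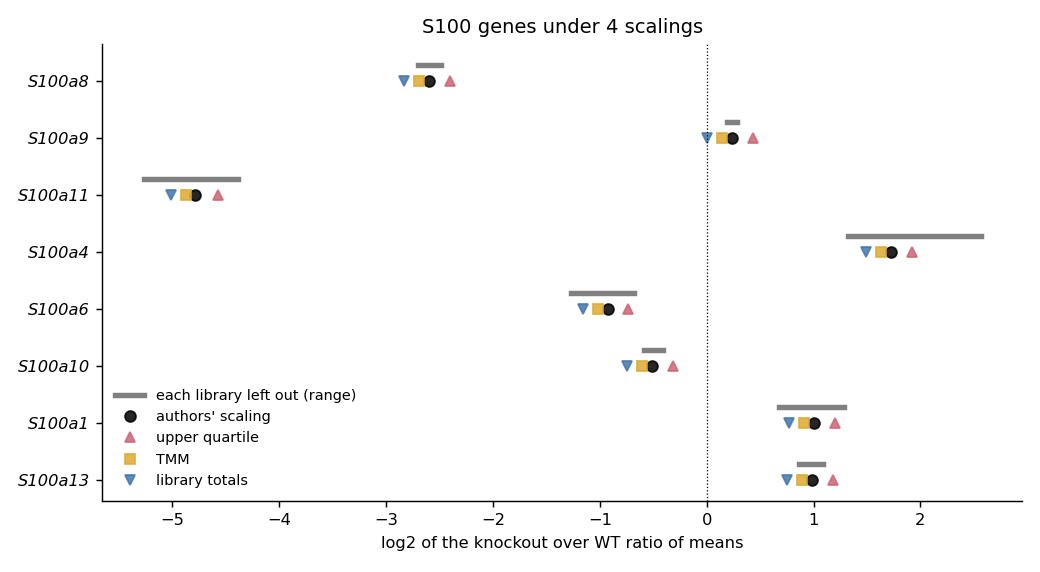
The log2 of the knockout over WT ratio of means (horizontal axis) for each S100 gene under the authors' scaling and 3 other scalings (symbols), with the range when each library is left out in turn (grey bars). S100a9 with library totals sits at 0.0057, next to 0, and the grey bar of S100a4 is the longest.

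Of the other 12 genes named S100, one was read well. S100pbp, which encodes a nuclear binding partner of an S100 protein, stood at 51.9, 54.0 and 63.4 in WT and at 38.9, 48.5 and 60.8 in the knockout, and the libraries overlapped (adjusted p = 0.629, limma). The other 11 had at most 4 reads in any library, with S100a2, S100a5, S100a7a, S100a7l2, S100a16, S100b, S100g and S100z seen at all and S100a3, S100a14 and S100a11-ps not. S100pbp alone passed the filter, and limma called 0 of 1, with 0 at an unadjusted p under 0.05. DESeq2 and edgeR did not call it either.

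The 8 members all lie on chromosome 3, in a stretch that also holds epidermal genes, with 2824766 bases between S100a9 and S100a11. Of 108 other genes in that stretch 22 had reads and 2 were tested, the pseudogenes Rplp0-ps1 (8.02 ± 2.79 in WT and 9.31 ± 4.67 in the knockout, adjusted p = 0.896) and Gm5284 (0.216 ± 0.375 and 2.04 ± 1.78, adjusted p = 0.298). Limma called 0 of them, with 0 at an unadjusted p under 0.05, and DESeq2 called 0 of 22, while the edgeR filter kept none. Without knockout replicate 1, limma called Gm5284 higher (adjusted p = 0.0304), on 1 read in WT and 4 in the knockout.

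Receptors and adaptors through which extracellular S100 proteins act ranged widely in level, with WT means from 3.45 ± 0.967 for Mcam to 265 ± 5.60 for Emb (SD, n = 3), and 4 of 13 (Emb, Nptn, Bsg and Alcam) averaged 50 normalized reads or more. Of 13 tested receptors and adaptors 0 were higher and 1 was lower at an adjusted p under 0.05 (limma), where 10.3% and 10.9% of all tested genes were called higher and lower, and the list median log2 fold change was -0.60 against -0.17 for all genes. That list median was unstable, at -0.20 without knockout replicate 1 and -0.74 without knockout replicate 3. For all genes it was -0.15 and -0.18 in the same fits. The lower gene was Ly96, which encodes the MD-2 partner of Toll-like receptor 4, with 35 reads over the WT libraries against 1 over the others. The ratio, corrected by the deposited scaling, was 0.0645, with an exact 95% counting interval of 0.00159 to 0.384 (adjusted p = 0.0268). Its call was lost without WT replicates 1, 2 and 3 in turn, without the filter and with DESeq2 (adjusted p of 0.0128 to 0.1003 over 15 alternatives). Tlr4 itself stood at 24.0, 15.3 and 36.1 in WT and at 29.5, 12.9 and 8.68 in the knockout (adjusted p = 0.480, limma). Ager, which encodes RAGE, had means of 10.7 ± 3.32 and 14.6 ± 12.5 (adjusted p = 0.880), and its direction turned with library totals. Libraries of both genes overlapped between genotypes.

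Of 23 tested proteins that S100 members bind or serve inside cells, 6 were higher and 3 lower, and the list median was -0.05. Of all tested genes 10.3% were called higher and 10.9% lower, at a median of -0.17. Myh9, the non-muscle myosin heavy chain bound by S100a4, rose from 4250.04 ± 413 to 9405 ± 426, by 1.15 on the log2 scale with an SE of 0.071 (adjusted p = 2.53e-05, limma). Anxa11, an annexin bound by S100a6, rose 1.76-fold from 234 ± 26.1 to 412 ± 22.6 (adjusted p = 0.00265). Anxa2, the partner of S100a10, fell from 352 ± 22.7 to 209 ± 50.9 (adjusted p = 0.0154), while S100a10 itself was lower in all 3 knockout libraries.

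Anxa1, the partner of S100a11, went the other way from S100a11 and is named after its values were seen, as is Anxa6. It rose from 771 ± 69.6 to 1194.5 ± 182 (adjusted p = 0.00931), and Anxa6 rose 1.66-fold (adjusted p = 0.0101). Atp2a2, a calcium pump on which S100a1 acts, rose 1.37-fold from 867 ± 45.8 to 1189 ± 81.1 (adjusted p = 0.00591). Ncf1 encodes a cytosolic subunit of the phagocyte NADPH oxidase, an enzyme that calprotectin is known to assist. Ncf1 rose from 237 ± 11.6 to 384 ± 49.4 (adjusted p = 0.00732). Cybb, Cyba, Ncf4 and Rac2, of the same enzyme and named after their values were seen, were not called. Their ratios were 0.957, 0.831, 0.861 and 0.970 (adjusted p of 0.381 to 0.811, limma). Plg, the plasminogen gene, was also called lower, but at 3.48 ± 2.08 normalized reads in WT and none in the knockout it lay under the knockout floor of 3 reads (4.02 to 4.85 normalized reads), so no fold is given.

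The counts for these partners fell when a WT library was left out, and so did the count over all genes. Without WT replicates 1, 2 and 3 in turn, 1592, 1385 and 1360 of all genes were called in place of 3628. Partners called were then 6, 4 and 2 in place of 9. Anxa2 was lost each time, while Myh9 and Anxa11 were called under every one of 17 alternatives. The call of Anxa2 was also lost with upper-quartile scaling, with no variance trend and at an adjusted p under 0.01. That of Atp2a2 was lost with library totals, with no variance trend and without WT replicate 3. Ncf1 lost its call with no variance trend and without WT replicate 3. Over 17 alternatives each, adjusted p reached 0.0904 for Anxa2, 0.164 for Atp2a2 and 0.0737 for Ncf1.

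Among 11 transcription factors known to act on S100a8 and S100a9 or on myeloid maturation, 2 were higher and 3 lower, with a list median of -0.54. Shares over all tested genes were 10.3% higher and 10.9% lower, with a median of -0.17. Cebpd fell from 56.3 ± 0.392 normalized reads to 7.09 ± 4.32, 7.94-fold lower (adjusted p = 0.00421, limma). Its knockout values rest on 9, 3 and 3 reads, against 83 to 92 per WT library. Knockout replicates 2 and 3 thus lay at the floor of 3 reads, and the size of the fold is imprecise. Cebpb fell 2.64-fold from 57.2 ± 10.3 to 21.6 ± 9.54 (adjusted p = 0.0352), and Irf8, a factor of the monocyte lineage, fell 1.93-fold from 603 ± 5.79 to 313 ± 44.9 (adjusted p = 0.00115). Cebpe, which drives late granulocyte maturation, rose 1.71-fold from 117 ± 3.30 to 200.01 ± 37.7 (adjusted p = 0.0193), and Spi1, which encodes PU.1, rose 1.64-fold from 101 ± 7.42 to 165 ± 26.4 (adjusted p = 0.0265). Without WT replicates 1, 2 and 3 in turn the called genes numbered 2, 2 and 2 in place of 5, and with library totals 0 were higher and 4 lower. Calls over all genes also fell without each WT library. Cebpd and Irf8 were called under each of 16 and 17 alternatives.

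Other neutrophil genes did not share one direction. Of 16 neutrophil markers, all tested, 6 were higher and 6 lower, with a median of -0.07. Over all tested genes 10.3% were higher and 10.9% lower, with a median of -0.17. Fcnb, a ficolin of immature neutrophils, rose 2.32-fold from 614 ± 29.1 to 1424 ± 42.3 (adjusted p = 2.23e-05, limma), and Mmp9, a gelatinase, rose 2.08-fold from 692 ± 64.9 to 1436 ± 28.6 (adjusted p = 9.29e-05). Chil3 fell 2.72-fold from 671 ± 71.7 to 247 ± 42.1 (adjusted p = 0.000338), and Cd177, a neutrophil surface protein, fell 2.00-fold from 1005 ± 103 to 502 ± 24.8 (adjusted p = 0.000261). Added over the 16 genes, WT libraries held 9378 to 10731 normalized reads and knockout libraries 9497 to 10224, so the summed level overlapped, and no marker was at 0 in all libraries of a genotype. Without WT replicates 1, 2 and 3 in turn 7, 7 and 7 markers were called in place of 12, 4 higher and 3 lower each time. The count over all genes fell as well.

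Markers of other cells were measured beside them, and their part in the S100 values was not tested. Beside the counts that follow, 10.3% of all tested genes were called higher and 10.9% lower. Of 4 promyelocyte markers Mpo rose 2.29-fold and Ctsg 1.46-fold while Prtn3 fell 1.99-fold (adjusted p of 2.02e-05, 0.00254 and 0.000122, limma). Of 8 monocyte markers 0 were higher and 1, Ly6c2, was lower, from 324 ± 40.1 to 21.4 ± 21.2 (adjusted p = 0.00179, limma). Of 7 B cell markers 4 were higher and 0 lower, with Igll1 up 5.94-fold and Pax5 up 3.61-fold (adjusted p = 0.00219 and 0.00560, limma). All 5 erythroid markers were higher, among them Slc4a1 at 2.88-fold and Ermap at 1.65-fold (adjusted p = 6.91e-05 and 0.00303). The summed level ran from 226 to 232 in WT and 495 to 527 in the knockout for B cell markers, and from 921 to 951 and 2351 to 2383 for erythroid markers. For promyelocyte markers it ran from 21533 to 26486 and from 38837 to 40641, and for monocyte markers from 1450.2 to 1591 and 1137 to 1336. Each of these last shifts was carried by 1 gene, as a sum chosen after the data were seen shows. Without Mpo the other 3 promyelocyte markers summed to 10079 to 12253 in WT and 10488 to 10786 in the knockout, and without Ly6c2 the other 7 monocyte markers summed to 1140.2 to 1221 and 1092 to 1329.8, so the libraries overlapped in both. Of 9 tested stem and progenitor markers and 5 T cell markers limma called 0 and 0, with 1 and 0 at an unadjusted p under 0.05. No marker of these lists was at 0 in all libraries of a genotype.

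**Figure D4:**
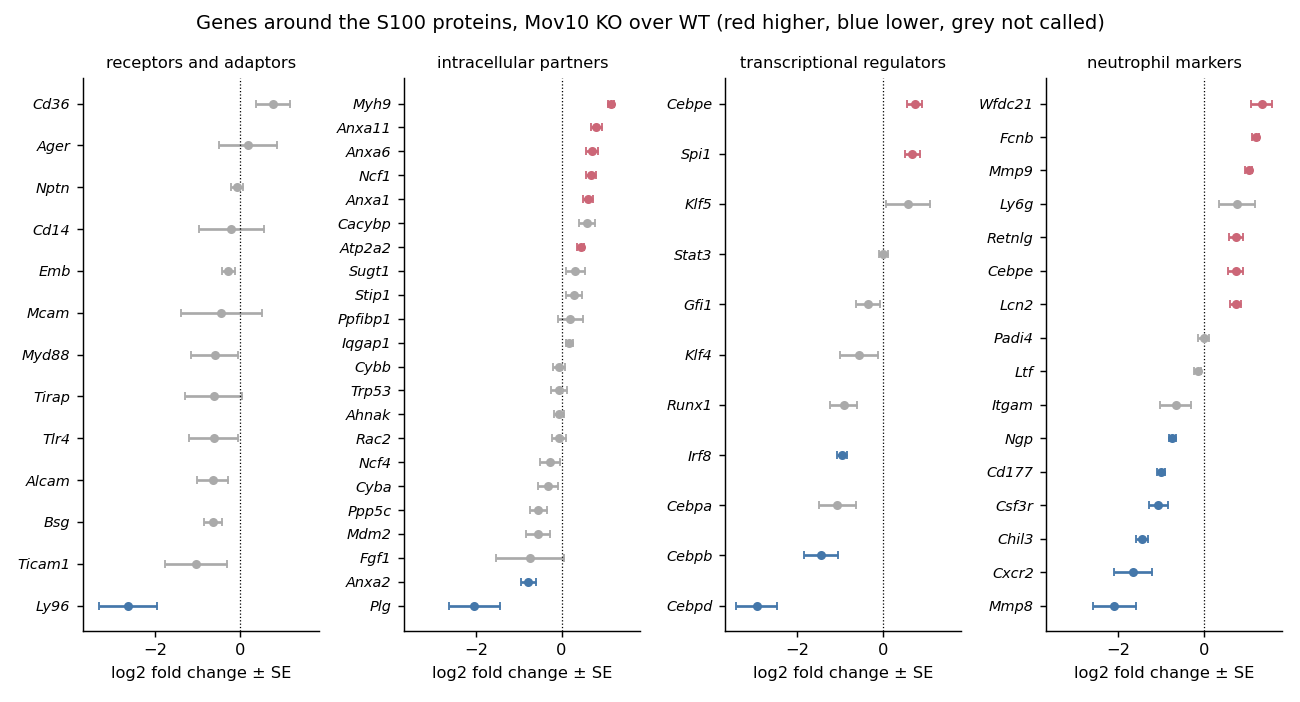
The log2 fold change (knockout over WT) ± SE from limma for tested genes of 4 lists (1 partner not shown), receptors and adaptors, intracellular partners, transcriptional regulators and neutrophil markers, with called genes in red (higher) or blue (lower). The neutrophil markers split into 6 higher and 6 lower, and Ly96 is the one called receptor gene.

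Over the 6 libraries, the profiles most like that of S100a8 among 6187 other protein-coding genes (mean of 50 normalized reads or more) were those of Actg1, Slc43a1 and Ifi203. Likeness was the Euclidean distance between log2(value + 1) profiles after subtracting each gene's mean, and these distances were 0.27, 0.43 and 0.50. Actg1, a cytoplasmic actin, averaged 532 ± 54.3 in WT and 92.4 ± 8.97 in the knockout, Slc43a1, an amino acid transporter, 307 ± 7.17 and 46.5 ± 13.6, and Ifi203, an interferon-inducible gene, 118 ± 1.14 and 21.0 ± 2.19. All 3 were 5.60-fold to 6.60-fold lower, and a fold near that of S100a8 follows from choosing them by likeness. Most like S100a9 were Cntrl, a centrosomal protein gene, Nol11, which acts in ribosome biogenesis, and Nfrkb, a chromatin remodelling subunit, at distances of 0.079, 0.097 and 0.11 and ratios of 1.18, 1.22 and 1.24. Ratios near that of S100a9 likewise follow from the choice. None of the 6 is an S100 gene.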

How the data were processed

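The deposited signal values are read counts per gene that the authors divided by 1 size factor per library, as the values show. In 99.98% of the nonzero values this gave a whole number of reads, within 0.05 of a read. The authors' deposited log2 fold changes, p-values and adjusted p-values come from a test not given in the sources used here, and were not used. Aligner, counting tool and annotation are likewise not given; the submitters' processing notes name GRCm39. Gene lengths, which the per-kb levels rest on, are those deposited.

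The unit is not counts, so limma 3.58.1 (R 4.3.3) was run with a variance trend on log2(value + 1) for the 17114 genes whose mean reached 1 normalized read, comparing the genotypes with no covariate; fold changes of low genes are understated on that scale. Count tests on the recovered reads called 3279 genes with DESeq2 and 3213 with edgeR. Calls used a Benjamini-Hochberg adjusted p under 0.05 over all tested genes. Rps29, Camp, Igkc, Ssr4 and Rpl27, not whole multiples, were left out. On simulated data the fit was checked for knockout against WT. The 8 members had no test. Ratios are of mean normalized reads, and counting intervals and floors cover counting error only, since the labels mention no molecular identifiers. Some listed genes are counted but not reported here by name. Figures used matplotlib 3.10.9.

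The members, lists and rules were chosen with earlier results of these data known. Named were all S100 genes with reads, in each list up to 4 called genes with the smallest p and any needed to show the opposite direction, Ager and Tlr4, and the 3 profiles nearest to each calprotectin gene. The motifs were chosen after the data were examined, and the window's length was set with their matches known. Alternatives were upper-quartile, library-total and TMM scaling, a pseudocount of 0.1, no filter, a mean of at least 50, no variance trend, an adjusted p under 0.01, a replicate block, edgeR 4.0.16, DESeq2 1.42.0 and each library left out.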

Additional observations from a re-analysis of the deposited data

How the results depend on the processing

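The member ratios kept their direction under every scaling and with each library left out. Those that moved by more than the spread between libraries were S100a9, at a log2 ratio of 0.0057 under library totals and 0.43 under the upper quartile against 0.24, and S100a10, at -0.74 with library totals against -0.51. Called among all genes were 3628, and 1427 at an adjusted p under 0.01, and 1360 to 4599 with each library left out in turn. The share of calls that were higher was 48.4% as deposited, and it was 31.0% under library totals and 62.6% under the upper quartile. Receptors and adaptors had 1 call, 3 with library totals, 2 with TMM scaling, 0 without a filter, 0 with DESeq2, 0 at an adjusted p under 0.01 and 0 to 3 with a library left out. Partners had 9 calls, 3 with no variance trend, 5 at an adjusted p under 0.01 and 2 to 12 with a library left out. Regulators had 5, 2 with no variance trend, 2 at an adjusted p under 0.01 and 2 to 7 with a library left out. Neutrophil markers had 12, 5 with no variance trend, 7 at an adjusted p under 0.01 and 7 to 13 with a library left out. The chromosome 3 neighbours had 0, and 0 to 1 with a library left out. Reversed, none of them called, were Ager (log2 fold change -0.037 with library totals, -0.44 to 0.54 with a library left out) and Rplp0-ps1 (-0.063 with library totals, -0.20 to 0.44 with a library left out). The cause of these changes was not tested. Same-numbered libraries did not deviate together (r across 6307 genes of -0.029, -0.0055 and -0.021), and the replicate block gave 3245 calls over all genes. Of the 6 libraries 0 correlated best with their own number. Depth limits S100a4, S100a11 and Cebpd in the knockout, read 3 to 14 times per library.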
